A study of Mus musculus with 5 samples.

Results

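Glucose uptake and glycolysis were described in mouse hearts through 10 genes, taken by symbol from a table of 17818 genes measured by RNA-seq. They are the transporters Slc2a1 and Slc2a4, the hexokinases Hk1 and Hk2, and the later enzymes Pfkm, Aldoa, Pgk1, Pkm, Ldha and Ldhb. All 10 were found, and all 10 were among the 12734 genes tested. The study compared 3 groups of hearts from male mice sampled 12 months after bone marrow transplantation. There were 2 hearts labelled Tet2+/- and Oridonin, 2 labelled Tet2+/- and vector, and 1 labelled WT and vector, all with a labelled time of 2 months. Sample titles end in 1 month or 2 month, which was read as a replicate number, as in the column names. Tet2 encodes a DNA demethylase that is often mutated in clonal blood cells, and oridonin is a plant diterpenoid. The labels do not say whether the genotype is that of the donor marrow or of the recipient, and they give no strain, age at transplantation or dose. They do not say either whether each library is 1 animal, so p-values measure the spread between these libraries.

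Heart muscle draws glucose mainly through GLUT4, encoded by Slc2a4, which insulin and contraction move to the cell surface. GLUT1, encoded by Slc2a1, gives basal uptake and is also carried by endothelial cells and red cell precursors. Hexokinase traps glucose as glucose 6-phosphate, phosphofructokinase commits it to glycolysis, and lactate dehydrogenase interconverts pyruvate and lactate. The adult heart burns mostly fatty acids, and many glycolytic genes are known targets of the hypoxia-inducible factor HIF-1.

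Library totals were 14626806 and 14574823 counts for oridonin, 15535778 and 15334618 for Tet2 vector and 15002794 for WT, and 3 counts correspond to 0.193 to 0.206 CPM, the count scaled to a common library total. The 13 cardiomyocyte markers summed to 79381 and 85183 CPM in oridonin hearts, 80013 and 73119 CPM in Tet2 vector hearts and 77847 CPM in WT, which fits the heart label. Genes of the mitochondrial genome took 30.2% and 28.2% of counts in oridonin, 26.8% and 29.7% in Tet2 vector and 23.6% in WT hearts. Tet2 itself was at 9.47 and 17.9 CPM in oridonin hearts, 19.2 and 7.79 CPM in Tet2 vector hearts and 15.6 CPM in WT. Replicates of each Tet2+/- group thus lay on both sides of the WT heart, and the Tet2 level did not separate the genotypes. Tet2 vector replicate 1 stood apart by atrial markers, with Myl7 at 176 CPM and Myl4 at 270 CPM, against at most 0.103 and 1.68 CPM in the other 4 libraries. Its Sln and Bmp10 were at 66.6 and 187 CPM, against at most 0.103 and 0.359 CPM elsewhere. Without that library, Tet2 vector over WT gave log2 fold changes of -0.83 for Slc2a1, 0.20 for Hk1, 0.42 for Pkm and 0.36 for Ldha, and oridonin over vector gave -0.14 for Hk1 and -0.31 for Ldha. None of the 10 genes was called there, in limma. With 1 WT library there is no spread among WT hearts, and the fit assumes that it varies like the Tet2+/- libraries.

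The 10 genes differed widely in level once counts were set per kilobase of the longest coding transcript. Aldoa, the aldolase of muscle, was the most abundant in every library, at 1737 and 1533 CPM per kilobase in oridonin, 1533 and 1869 in Tet2 vector and 1637 in WT hearts. Ldhb followed, at 1230.2 and 1099, 1078 and 1412, and 1229 CPM per kilobase in the same libraries. Pkm lay between 421 and 563 and Ldha between 344 and 457 CPM per kilobase, and these ranges overlapped. Pfkm lay between 295 and 317, Pgk1 between 203 and 231 and Slc2a4 between 151 and 172 CPM per kilobase, and these 3 ranges did not overlap each other. The hexokinases came next, with Hk2 between 53.3 and 68.0 and Hk1 between 42.8 and 55.3 CPM per kilobase, again overlapping. Slc2a1 was lowest in every library, between 5.61 and 11.5 CPM per kilobase. Summed, the 10 genes took 8617 and 7722 CPM in oridonin hearts, 7977 and 9140 CPM in Tet2 vector hearts and 8061 CPM in the WT heart, so the groups overlapped.

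**Figure D1:**
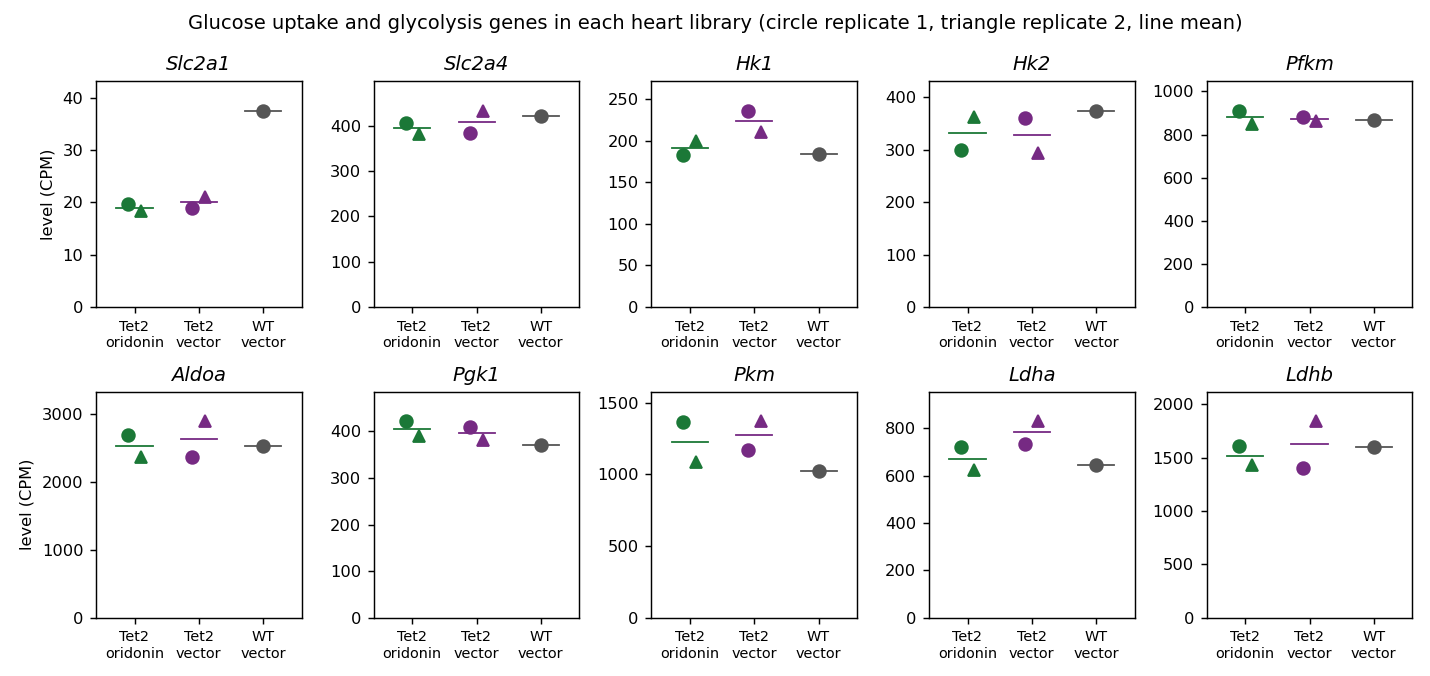
Level of each of the 10 genes in each library, in CPM on linear axes from 0 that differ between panels, with oridonin hearts at the left, Tet2 vector hearts next and the WT heart last. Circles are replicate 1, triangles replicate 2 and lines the group mean. The 4 Tet2+/- libraries of Slc2a1, at 18.3 to 21.1 CPM, lie below the WT library at 37.6 CPM.

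Promoter windows are shown for 3 known HIF-1 targets: Slc2a1, with the widest differences from WT, Ldha, and Pgk1, with small differences in every comparison. None of the 3 genes passed the test in any comparison. Each window is the 250 bases before a RefSeq start on GRCm38.p6, and all 3 read on the plus strand. Capitals mark ACGTG or GCGTG, the core of the hypoxia response element, on either strand, so CACGT and CACGC are the same cores read from the other strand. Slc2a1 is shown at chr4:119108495-119108744, Pgk1 at chrX:106186850-106187099 and Ldha at chr7:46845554-46845803.
Slc2a1: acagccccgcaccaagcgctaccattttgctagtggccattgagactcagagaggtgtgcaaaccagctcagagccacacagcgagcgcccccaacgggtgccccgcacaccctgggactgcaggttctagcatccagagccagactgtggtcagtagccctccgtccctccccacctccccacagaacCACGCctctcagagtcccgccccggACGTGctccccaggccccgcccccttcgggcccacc
Pgk1: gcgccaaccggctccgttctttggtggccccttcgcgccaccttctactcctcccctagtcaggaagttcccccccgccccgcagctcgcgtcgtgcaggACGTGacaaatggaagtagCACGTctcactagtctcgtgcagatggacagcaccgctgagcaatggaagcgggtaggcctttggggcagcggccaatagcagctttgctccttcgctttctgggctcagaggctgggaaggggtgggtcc
Ldha: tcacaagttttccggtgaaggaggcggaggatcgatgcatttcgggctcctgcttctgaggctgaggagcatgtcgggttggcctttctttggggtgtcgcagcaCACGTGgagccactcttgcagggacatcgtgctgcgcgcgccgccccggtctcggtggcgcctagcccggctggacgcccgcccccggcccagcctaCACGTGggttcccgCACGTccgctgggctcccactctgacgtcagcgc

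The Slc2a1 window holds 2 cores, 61 and 36 bases before the start. The Pgk1 window holds 2, at 150 and 131 bases before it. The Ldha window holds 5 matches in 3 runs, because CACGTG, the E-box that MYC and clock factors are known to bind, reads as the core on both strands and occurs there 2 times. RefSeq entries were found for 9 of the 10 genes, with 17 windows in all, and Slc2a4 had none. Either core was present in 13 of the 17 windows, against 38.6% of 32851 RefSeq windows of the same length. Windows of 1 gene can overlap, and 2 of Aldoa and 2 of Pfkm share a core, so these counts hold some sites more than once. By gene, either core was in 9 of 9 and ACGTG in 7 of 9. No background by gene was computed, and a gene with several windows has more places for a match. The windows behind the percentages were not matched for base content. ACGTG alone was in 9 of the 17 windows, against 16.6% of all windows. TATAAA was in 0 of the 17, against 12.4% of all windows. A match is a description of these letters and does not show that a factor binds.

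Slc2a1 had the widest differences from WT of the 10 genes, and they did not pass the test. It lies on chromosome 4 from 119108711 to 119137983 (GRCm38, plus strand, 10 exons) and shares up to 105 exonic bases with the antisense gene Gm12868, whose level was not analysed here. Its counts were 287 and 266 in oridonin hearts, 295 and 323 in Tet2 vector hearts and about 564 in the WT heart, whose mixed value is no single count. As CPM these are 19.7 and 18.3, 19.0 and 21.1, and 37.6. All 4 Tet2+/- libraries were below the WT library, and the oridonin and vector hearts overlapped. Tet2 vector over WT gave a log2 fold change of -0.91 (SE 0.24, 95% interval -1.50 to -0.32), or a level 0.533 times that of WT. Its unadjusted p in limma was 0.00919 and its Benjamini-Hochberg adjusted p was 0.417, so it did not pass the threshold of 0.05. Oridonin over WT gave -0.99 (SE 0.24, 95% interval -1.58 to -0.40), with an unadjusted p of 0.00626 and an adjusted p of 0.651 in limma. Both comparisons use the same WT library. Oridonin over vector gave -0.08 (SE 0.20, 95% interval -0.56 to 0.40), and its interval reaches from 0.678-fold to 1.32-fold. Fitted to the values as deposited, in which each Tet2+/- column is partly its replicate, the 2 comparisons with WT passed in limma, with adjusted p of 0.0123 for Tet2 vector and 0.0174 for oridonin. That mix narrows the replicate spread.

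In RNA of mixed heart cells, fewer cells of a type and less RNA per cell cannot be told apart, so the levels of other carriers of GLUT1 are given beside it. The 10 endothelial markers, none at 0 counts, summed to 1155 and 1274 CPM in oridonin, 1161 and 1063 CPM in Tet2 vector and 1198 CPM in WT hearts, overlapping between oridonin and WT. Of the 10, 6 were lower in Tet2 vector than in WT, with a median log2 fold change of -0.27, and 7 in oridonin than in WT, with a median of -0.20. Cldn5, a tight junction gene of endothelium, was chosen after its values were seen. It had 13.8 and 11.9 CPM in oridonin, 10.2 and 17.1 CPM in Tet2 vector and 26.0 CPM in WT hearts, so all 4 Tet2+/- libraries were below WT, as for Slc2a1. Kdr and Emcn went the other way, with all 4 above WT. Kdr had 255 and 321 CPM in oridonin, 255 and 202 CPM in Tet2 vector and 184 CPM in WT hearts. Emcn had 50.4 and 56.8, 66.8 and 59.8, and 34.1 CPM in the same libraries. Without overlap, 2 of the 10 markers were higher and 6 lower in Tet2 vector over WT, against 35.4% of all genes higher and 32.3% lower. In oridonin over WT 3 were higher and 5 lower without overlap, against 31.9% of all genes higher and 41.7% lower. Of the 7 red cell markers in the table, Slc4a1 was at 0 counts in Tet2 vector replicate 1. They summed to 391 and 323 CPM in oridonin, 250.2 and 149 CPM in Tet2 vector and 372 CPM in WT hearts. All 5 red cell markers tested were lower in Tet2 vector than in WT, with a median log2 fold change of -1.07, and higher in oridonin than in vector, with a median of 0.87. Slc2a1 did not show that second difference, with 19.7 and 18.3 CPM in oridonin and 19.0 and 21.1 CPM in vector hearts. Macrophage and monocyte markers, 11 of 11 in the table, summed to 295 and 307 CPM in oridonin, 533 and 318 CPM in Tet2 vector and 303 CPM in WT hearts. The part of these cells in the Slc2a1 level was not tested.

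Slc2a4, on chromosome 11 from 69942539 to 69948188 (minus strand, 11 exons), had close values in the 3 groups. It had 406 and 382 CPM in oridonin, 384 and 433 CPM in Tet2 vector and 422 CPM in WT hearts. The WT value lay inside the range of the vector hearts and above both oridonin hearts. Its log2 fold change was -0.05 in Tet2 vector over WT (SE 0.19), -0.05 in oridonin over vector (SE 0.15) and -0.10 in oridonin over WT (SE 0.19). Per kilobase, Slc2a1 made up 3.61% and 3.58% of the summed Slc2a1 and Slc2a4 level in oridonin, 3.69% and 3.63% in Tet2 vector and 6.46% in WT hearts. The 4 Tet2+/- libraries were close together and all below WT.

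The hexokinases differed from WT in opposite directions in Tet2 vector hearts, and neither difference passed the test. Hk1, the widely expressed form bound to mitochondria, lies on chromosome 10 from 62268855 to 62379908 (minus strand, 18 exons). It had 183 and 200.2 CPM in oridonin, 236 and 211 CPM in Tet2 vector and 184 CPM in WT hearts. Both vector hearts were above all other libraries. The log2 fold change was 0.28 in Tet2 vector over WT (SE 0.20, 95% interval -0.20 to 0.77, adjusted p 0.675 in limma) and -0.22 in oridonin over vector (SE 0.16, 95% interval -0.62 to 0.17). Hk2, the insulin-responsive form of muscle and heart, lies on chromosome 6 from 82725025 to 82774454 (minus strand, 18 exons). It had 299.6 and 363 CPM in oridonin, 360.0 and 294 CPM in Tet2 vector and 375 CPM in WT hearts. All 4 Tet2+/- libraries were below WT, with a log2 fold change of -0.20 in Tet2 vector over WT (SE 0.23, adjusted p 0.803 in limma) and -0.18 in oridonin over WT (SE 0.23, adjusted p 0.897 in limma). The replicates of each group differed by more than that, 0.29 in vector and -0.28 in oridonin for replicate 1 minus replicate 2 on the log2 scale. Hk1 thus made up 44.0% and 41.5% of both hexokinases per kilobase in oridonin, 45.8% and 48.0% in Tet2 vector and 38.7% in WT hearts.

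**Figure D2:**
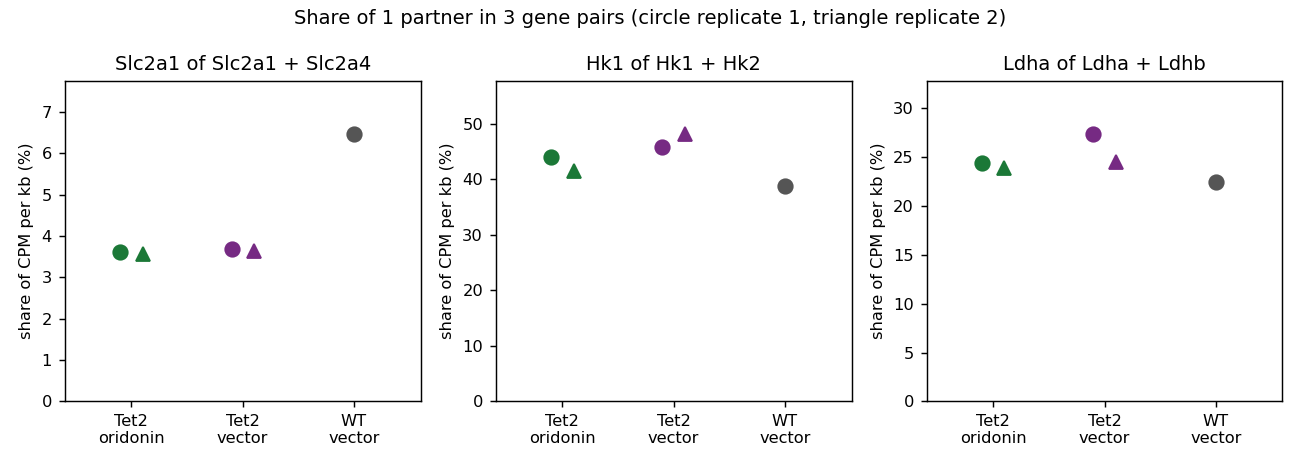
Share of 1 member of each isoform pair in the sum of both, in percent of the level per kilobase, by library, with oridonin hearts at the left, Tet2 vector hearts next and the WT heart last. Circles are replicate 1 and triangles replicate 2, and the Slc2a1 share is 3.58% to 3.69% in Tet2+/- hearts against 6.46% in the WT heart.

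Pfkm, the muscle phosphofructokinase that commits sugar to glycolysis, differed between groups by at most 0.02 on the log2 scale. It lies on chromosome 15 from 98092589 to 98132451 (plus strand, 23 exons) and shares 18 exonic bases with Senp1 on the other strand. It had 912 and 848 CPM in oridonin, 880 and 864 CPM in Tet2 vector and 866 CPM in WT hearts. All 3 groups overlapped, and its 3 log2 fold changes were 0.01 in Tet2 vector over WT, 0.01 in oridonin over vector and 0.02 in oridonin over WT, with SE of 0.17, 0.14 and 0.17. Senp1 was at 11.4 to 18.6 CPM in the 5 libraries, far under Pfkm.

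Aldoa, on chromosome 7 from 126795234 to 126800751 (minus strand, 10 exons, up to 25 of its exonic bases shared with Fam57b on the other strand), splits fructose 1,6-bisphosphate. It had 2690 and 2375 CPM in oridonin, 2375 and 2896 CPM in Tet2 vector and 2536 CPM in WT hearts. The WT value lay between the replicates of each group, and the fold changes on the log2 scale were 0.05 in Tet2 vector over WT and -0.05 in oridonin over vector. Its paralogs Aldoc and Aldoart1 were at most at 0.433 and 0.103 CPM. Pgk1, on chromosome X from 106187100 to 106203699 (plus strand, 11 exons), makes the first ATP of the pathway. It had 422 and 389 CPM in oridonin, 410 and 381 CPM in Tet2 vector and 370 CPM in WT hearts. All 4 Tet2+/- libraries were above WT by a small margin, with log2 fold changes of 0.10 in Tet2 vector over WT (SE 0.18) and 0.13 in oridonin over WT (SE 0.18).

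Pkm, pyruvate kinase of muscle, makes the last ATP of the pathway together with pyruvate. It lies on chromosome 9 from 59656368 to 59679375 (plus strand, 11 exons) and shares up to 167 exonic bases with Gm49759 on the same strand. The levels of Gm49759 and Fam57b were not analysed here, and the table does not split the M1 and M2 Pkm isoforms. It had 1362 and 1087 CPM in oridonin, 1171 and 1370 CPM in Tet2 vector and 1024 CPM in WT hearts. All 4 Tet2+/- libraries were above WT. The log2 fold change was 0.31 in Tet2 vector over WT (SE 0.22, 95% interval -0.22 to 0.83, adjusted p 0.676 in limma) and 0.25 in oridonin over WT (SE 0.22, adjusted p 0.865 in limma). Oridonin over vector gave -0.06 (SE 0.18), and those groups overlapped.

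Ldha, the lactate dehydrogenase subunit of fast muscle, lies on chromosome 7 from 46841475 to 46855627 (plus strand, 8 exons). It had 719 and 625 CPM in oridonin, 735 and 829 CPM in Tet2 vector and 645 CPM in WT hearts. Both vector hearts were above all other libraries, as for Hk1. Tet2 vector over WT gave a log2 fold change of 0.27 (SE 0.19, 95% interval -0.20 to 0.75, adjusted p 0.675 in limma), and oridonin over vector gave -0.22 (SE 0.16, 95% interval -0.61 to 0.17). Neither passed the test. Ldhb, the subunit that prevails in heart, lies on chromosome 6 from 142490249 to 142507957 (minus strand, 8 exons). It had 1604 and 1433 CPM in oridonin, 1405 and 1841 CPM in Tet2 vector and 1602 CPM in WT hearts. The groups overlapped, with a log2 fold change of 0.01 in Tet2 vector over WT (SE 0.22) and -0.08 in oridonin over vector (SE 0.18). Ldha made up 24.3% and 23.8% of both subunits per kilobase in oridonin, 27.3% and 24.5% in Tet2 vector and 22.4% in WT hearts.

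Across the 10 genes, Tet2 vector hearts against WT gave 0 calls at an adjusted p under 0.05 in limma, against 0% of the 12734 genes tested. At an unadjusted p under 0.05 the count was 1, Slc2a1, against 4.53% of all genes lower and 5.06% higher. Limma on voom weights also called 0 of the 10 genes. The vector hearts did not overlap the WT heart in 6 genes, 4 higher (Hk1, Pgk1, Pkm and Ldha) and 2 lower (Slc2a1 and Hk2), against 35.4% of all genes higher and 32.3% lower. Of the 10 genes 7 were higher (5 to 8 under the other scalings), against 50.4% of all genes. The median log2 fold change was 0.03, against 0.005 over all genes, and 5 of the 10 were within 0.1 of 0, against 17.4% of all genes.

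Oridonin against vector gave 0 calls in limma, against 0% of all genes, and 0 at an unadjusted p under 0.05, against 1.93% lower and 0.668% higher. Voom weights also gave 0. Hk1 and Ldha were the 2 genes whose groups did not overlap, both lower in oridonin, against 17.8% of all genes lower and 8.37% higher. Their oridonin hearts lay nearer to the WT value than their vector hearts did. The comparisons of vector with WT and of oridonin with vector share the vector libraries. A gene high in those libraries tends to come out higher in the first and lower in the second, which holds for the cell markers below too. Fibroblast markers differed in the same directions in oridonin over vector and, for most of them, in Tet2 vector over WT. They summed to 2037 and 1894 CPM in oridonin, 3243 and 3331 CPM in Tet2 vector and 2962 CPM in WT hearts, with none of the 10 at 0 counts. All 10 were lower in oridonin than in vector without overlap, with a median log2 fold change of -0.87, and 8 of 10 were higher in Tet2 vector than in WT, with a median of 0.58. In oridonin over WT 8 of the 10 were lower, with a median of -0.23, while Hk1 and Ldha gave 0.06 and 0.05. Of 11 macrophage and monocyte markers, 9 were higher in Tet2 vector than in WT, against 50.4% of all genes. Oridonin over vector had 7 of them lower and 4 higher, against 40.2% of all genes higher. Their sum was 533 CPM in vector replicate 1, 318 CPM in vector replicate 2 and 303 CPM in WT. The 2 neutrophil markers tested were also higher in Tet2 vector than in WT and lower in oridonin than in vector. The part of these cell types in the Hk1 and Ldha levels was not tested. Of the 10 genes 3 were higher (2 to 6 under the other scalings), against 40.2% of all genes. The median over them was -0.06, against -0.05 over all genes, and 8 of the 10 were within 0.1 of 0, against 35.5% of all genes.

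Oridonin against WT gave 0 calls in limma, against 0% of all genes, and 0 with voom weights. At an unadjusted p under 0.05 the count was 1, Slc2a1, against 3.53% of all genes lower and 2.69% higher. The groups did not overlap in 5 of the 10, with Pgk1 and Pkm higher and Slc2a1, Slc2a4 and Hk2 lower, against 31.9% of all genes higher and 41.7% lower. Higher values were found in 5 of the 10 (6 to 8 under the other scalings), against 43.8% of all genes. The median was 0.01, against -0.06 over all genes, and 6 of the 10 were within 0.1 of 0, against 19.9% of all genes. All genes include those near 1 CPM, and the shares in the 3 comparisons were not matched for level. This comparison shares its WT library with that of the vector hearts, and its oridonin libraries with the comparison of oridonin with vector.

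**Figure D3:**
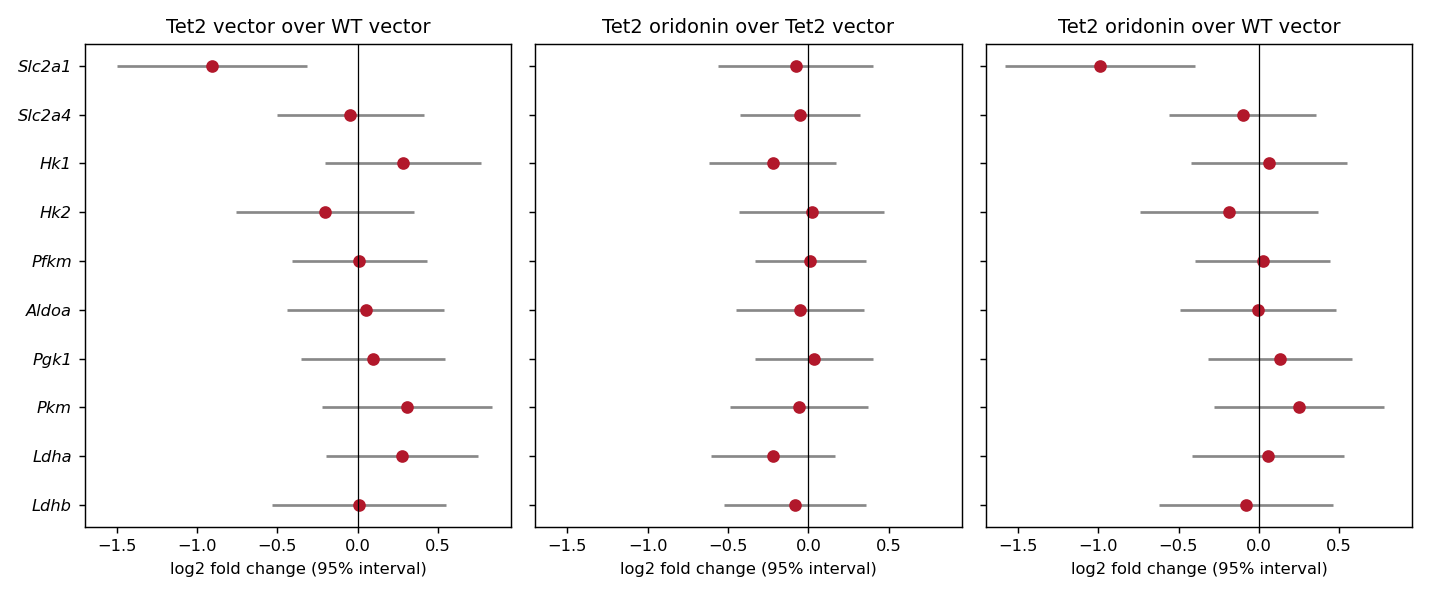
Log2 fold change of each of the 10 genes in the 3 comparisons, with points for the estimate and lines for the 95% interval in limma. The interval of Slc2a1 lies below 0 in both comparisons with WT, and those of the other 9 genes include 0 in all 3 comparisons.

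The replicates of a group also differed. The median gap between replicates was 0.15 on the log2 scale in oridonin, against 0.23 over all genes, and 0.17 in Tet2 vector, against 0.35 over all genes. Gaps over all genes were not matched for level either. Of the 10, 8 were higher in replicate 1 of oridonin, while in vector 6 were higher in replicate 2. Ldhb had the widest gap in vector, -0.39 for replicate 1 minus replicate 2, and Pkm the widest in oridonin, 0.33. Both exceed the difference between oridonin and vector hearts for those genes.

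Differences between libraries followed transcript length over all genes, which bears on how the 10 genes compare. In the 4366 tested genes over 4 kilobases, the median log2 fold change was -0.17 in Tet2 vector over WT, -0.01 in oridonin over vector and -0.21 in oridonin over WT. In the 2754 genes under 2 kilobases it was 0.19, -0.10 and 0.09 in the same order. Aldoa, Pgk1, Ldha and Ldhb fall in the short class, Slc2a4, Pfkm and Pkm in that of 2 to 3 kilobases, and Hk1 and Hk2 in the long one. Slc2a1, at 3.26 kilobases, falls in the class of 3 to 4 kilobases, whose 2224 genes had medians of -0.05, -0.04 and -0.08. Its own values were -0.91, -0.08 and -0.99. The replicates also differed by length class, with medians of -0.21 in vector and 0.11 in oridonin for replicate 1 minus replicate 2 in the short class, and 0.48 and -0.24 in the long one. The part of length in the differences of the 10 genes was not tested.

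**Figure D4:**
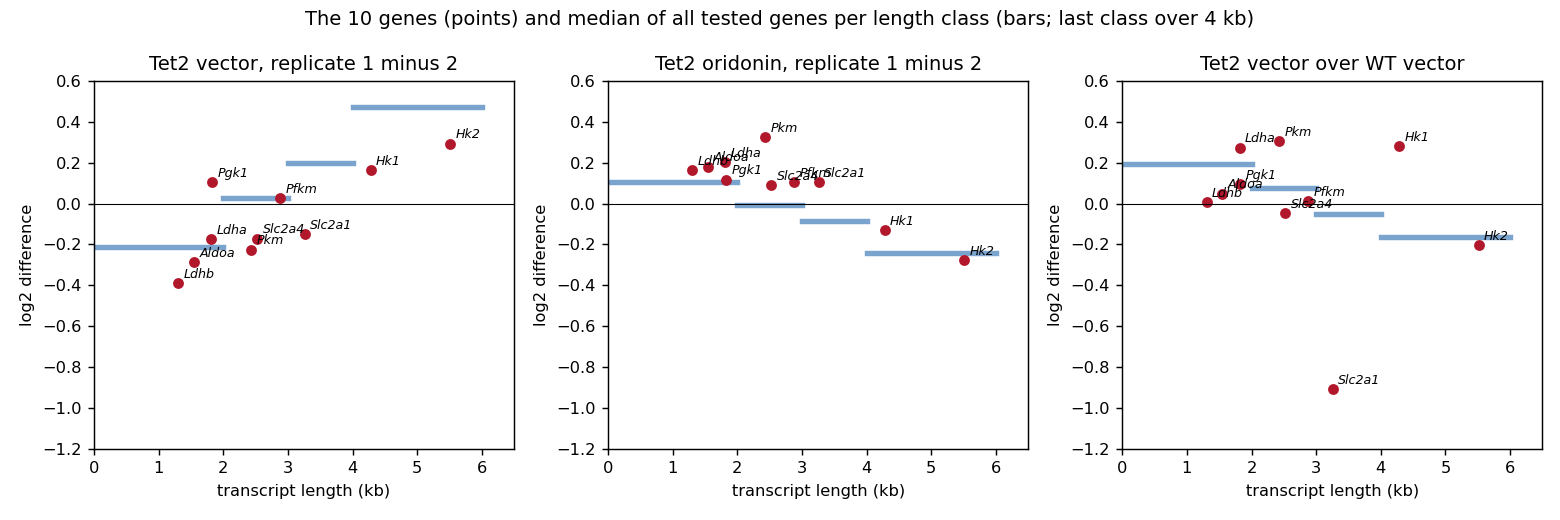
Log2 differences of the 10 genes (points) against transcript length in kilobases, for replicate 1 minus replicate 2 in Tet2 vector, the same in oridonin, and Tet2 vector over WT, with the median of all tested genes per length class (bars, the last class being over 4 kilobases). The bars climb with length in the first panel and descend in the others, and Slc2a1 at 3.26 kilobases lies at -0.91 in the last panel, beside its class median of -0.05.

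The other glycolytic enzymes were more often higher than lower in Tet2 vector hearts against WT, and 0 of the 15 tested passed the adjusted test in any comparison. In Tet2 vector over WT 11 of 15 were higher and 4 lower, with a median log2 fold change of 0.15 against 0.005 over all genes, and under the other scalings 10 to 12 were higher. The median in that comparison was 0.19 over all genes under 2 kilobases and -0.17 over those above 4 kilobases. The part of transcript length in the differences of this list was not tested. In oridonin over vector 4 of 15 were higher and 11 lower (9 or 10 lower under the other scalings), with a median of -0.11 against -0.05 over all genes. The enolases, which make phosphoenolpyruvate for Pkm, had the smallest p in Tet2 vector over WT. Eno3, the muscle form, had 1257 and 1112 CPM in oridonin, 1182 and 1294 CPM in Tet2 vector and 890 CPM in WT hearts. Eno1 had 91.7 and 85.5, 98.5 and 103, and 64.6 CPM in the same libraries. All 4 Tet2+/- libraries were above WT for both, as for Pkm, with log2 fold changes of 0.48 (SE 0.18, adjusted p 0.511 in limma) and 0.64 (SE 0.20, adjusted p 0.459 in limma) in Tet2 vector over WT. Tpi1, the triose isomerase next to Aldoa, had 777 and 669 CPM in oridonin, 650.0 and 820.1 CPM in Tet2 vector and 613 CPM in WT hearts. Gpi1, between hexokinase and phosphofructokinase, had 526 and 490 CPM in oridonin, 500.0 and 598 CPM in Tet2 vector and 503 CPM in WT hearts, with overlap. Pgam2, the muscle mutase, had 495 and 409 CPM in oridonin, 344 and 528 CPM in Tet2 vector and 360.4 CPM in WT hearts, also with overlap. Among 5 other glucose transporters tested, Slc2a12 had 10.1 and 7.79 CPM in oridonin, 15.0 and 9.23 CPM in Tet2 vector and 5.73 CPM in WT hearts, with the WT heart lowest, where it was highest for Slc2a1. Its log2 fold change was 1.04 in Tet2 vector over WT (SE 0.40, adjusted p 0.507 in limma).

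Neighbouring pathways gave 0 calls at an adjusted p under 0.05 in each comparison. The part of transcript length in the list medians given below was not tested. Of 18 glycogen genes, 14 were lower in Tet2 vector than in WT with a median of -0.25, and 11 to 14 were lower under the other scalings. Pygb, the brain-type glycogen phosphorylase, had 673 and 669 CPM in oridonin, 731 and 773 CPM in Tet2 vector and 1335 CPM in WT hearts. It was thus low in all 4 Tet2+/- hearts, like Slc2a1, with a log2 fold change of -0.83 in Tet2 vector over WT (SE 0.17, adjusted p 0.324 in limma). Of 22 genes of insulin signalling and GLUT4 traffic, 15 were lower in Tet2 vector than in WT with a median of -0.33, and 12 to 16 were lower under the other scalings. Of 14 HIF-1 genes outside glycolysis, 10 were lower in Tet2 vector than in WT, with a median of -0.25, and 9 or 10 under the other scalings. They differed both ways, since Bnip3 had 141 and 123 CPM in oridonin, 115 and 188 CPM in Tet2 vector and 302 CPM in WT hearts, while Egln3 had 101 and 105, 133 and 144, and 76.1 CPM. Pdk1, which restrains entry of pyruvate into the mitochondrial cycle, had 155 and 171 CPM in oridonin, 175 and 168 CPM in Tet2 vector and 258 CPM in WT hearts. Txnip, which curbs glucose transporters at the membrane, had 517 and 469.8 CPM in oridonin, 561 and 549 CPM in Tet2 vector and 548 CPM in WT hearts. The WT value lay above both oridonin hearts and just below both vector hearts.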

How the data were processed

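Poly-A RNA of hearts was sequenced from NEBNext Ultra libraries, per the labels' protocols, and the genome build is mm10 in the submitters' processing notes. Strand, aligner, counter and annotation were not given in the sources used here. A single table from the authors holds log2 values of 17818 genes in 5 columns, with 0 columns left without a sample. In the values, each is log2 of a count plus 0.5 scaled to CPM. Each deposited Tet2+/- column is 0.75 of its own log2 value and 0.25 of its replicate's. Undoing this gave whole counts within 0.01 for 99.92% to 99.94% of genes per library, against at most 10.4% at other weights. The WT column fits a mix of 2 sets of counts, 1 of which is not a column, for 99.9% of 6956 genes. It was used as deposited, and ratios of the 2 counts between 0.899 and 1.10 (0.5th to 99.5th percentile) bound its shift at -0.04 to 0.03 on the log2 scale. No source used here says how the mixes arose.

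Limma 3.58.1 (R 4.3.3), with trend and robust empirical Bayes, was fitted to the unmixed log2 CPM of all 5 libraries with group as the only term, over the 12734 genes that reached 1 CPM in 2 or more libraries. It has 2 residual degrees of freedom, and no library was dropped or imputed. P-values were two-sided and adjusted by Benjamini-Hochberg over all genes at 0.05. The code was tested on simulated data. Transcript lengths and coordinates come from GENCODE M21 on GRCm38, and promoters from RefSeq on GRCm38.p6. Other named genes were listed partner isoforms and neighbouring steps, plus up to 2 genes per pathway list and comparison with the smallest p among those whose groups do not overlap. Tet2 and Senp1 were added. The 10 genes and all lists were chosen with earlier results of these data known. Alternatives were the deposited values, voom weights, other scalings and filters, fits of 2 groups only, replicate blocks and leaving out each Tet2+/- library.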

Additional observations from a re-analysis of the deposited data

How the results depend on the processing

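Counts of calls differed between fits. Over all genes tested, 0 were called in each comparison, while the deposited mixed values, whose mix narrows the spread, gave 2312 for Tet2 vector over WT, 76 for oridonin over vector and 996 for oridonin over WT. With only the 2 groups compared, the counts were 103 for Tet2 vector over WT and 1 for oridonin over WT. Leaving out each Tet2+/- library gave 2 to 107, 3 to 32 and 0 to 24 calls in the same order of comparisons. The labels do not state that replicate numbers pair the samples. Deviations of same-numbered libraries correlated at -0.30, which cannot show whether they are paired. The replicate block gave 10, 9 and 6 calls in the same order. A crossed replicate block, chosen after seeing the data, gave 432, 44 and 184 calls. Of the 10 genes, 1 was called, Slc2a1, in each comparison with WT with the deposited values (adjusted p of 0.0123 and 0.0174 in limma) and with the crossed block. For the fits other than the deposited values, the cause was not tested.

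Slc2a1 kept its direction in all alternatives, from -0.98 to -0.82 in Tet2 vector over WT and from -1.05 to -0.87 in oridonin over WT. Over the 10 genes, 41 of 450 log2 fold changes under alternatives had the other sign, none of them for Slc2a1, or for Hk1, Pkm and Ldha in Tet2 vector over WT. Several alternatives keep the group means, so their signs could not change. Among these are the deposited values, other filters, the fits of 2 groups only and leaving out a library outside the comparison. The 41 of 450 is therefore no measure of stability. Quantile scaling moved the median of the 10 genes to 0.22 in Tet2 vector over WT and 0.21 in oridonin over WT, and totals without mitochondrial genes moved it to 0.12 in both. The second scaling shifts all genes of a library alike, by its mitochondrial share, which was 23.6% in WT and 26.8% to 30.2% in Tet2+/- hearts. The cause of the move under quantile scaling was not tested. With 1 WT library, differences from WT rest on that library, and it could not be left out.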

Other observations

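Gapdh, the glycolytic enzyme between Aldoa and Pgk1, was listed at 6.26 and 6.96 CPM in oridonin hearts, 5.95 and 7.86 CPM in Tet2 vector hearts and 10.1 CPM in the WT heart. Pgk1, the next step, was at 370.2 to 422 CPM in the same libraries. The genome holds many copies related to Gapdh, and no source used here says how reads with several matches were counted.

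Dbp, a clock output gene, was at 123 and 95.1 CPM in oridonin hearts, 85.5 and 98.9 CPM in Tet2 vector hearts and 37.0 CPM in the WT heart, with a log2 fold change of 1.31 in Tet2 vector over WT (SE 0.25, adjusted p 0.324 in limma). The labels give no time of day, and its part in the levels of glycolytic genes was not tested.

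Ppp1r3c, which targets a phosphatase to glycogen, was at 72.1 and 84.2 CPM in oridonin hearts, 125 and 137 CPM in Tet2 vector hearts and 125 CPM in the WT heart. It had the smallest unadjusted p of the glycogen genes in oridonin over vector, 0.00518, with a log2 fold change of -0.75 (SE 0.18) and an adjusted p of 0.9999 in limma.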
